A study of Homo sapiens with 6 samples.

Results

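The genes examined here encode the integrin subunits through which epithelial cells hold on to the extracellular matrix: ITGA1, ITGA2, ITGA3, ITGA5, ITGAV, ITGB1, ITGB3, ITGB5, ITGB6 and ITGB8. The rule took them by name, as receptors of collagen, laminin, fibronectin and RGD-bearing ligands, with earlier results of these data known. Each was looked up by its symbol in the array table, and where several probe sets carried a symbol the one with the highest mean over A01, A02, B02, B03 and B04 was read. Of the 10 genes, 9 were found among 81496 gene symbols. No row carried the symbol ITGA1, and ITGA1 was not analysed here. The arrays compared 2 human breast epithelial lines. MCF10.AT1 is a preneoplastic line of the MCF10A progression series that is sensitive to fluvastatin, a statin that inhibits HMG-CoA reductase, and the labels' source name calls its cells untreated, although the labels give the fluvastatin protocol for all 6 samples. MCF10.AT1-R is the single resistant line derived from it by exposure to fluvastatin in doses that rose from 1 to 20 µM, and whether the drug was present when its RNA was taken is not given in the sources used here. Both lines were grown in the same medium. Each line had 3 Clariom D arrays, which the labels call biological replicates. The values are log2 expression values made by the RMA method, so a difference of 1 is a doubling of signal. Levels are not compared between genes, since probe sets differ in how brightly they respond, except to name the probe set with the highest mean of each marker list.

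Integrins are pairs of an α and a β subunit that cross the cell membrane, bind matrix proteins outside and join the actin cytoskeleton inside through talin, kindlin and the proteins of focal adhesions. ITGB1 is the common β partner: with ITGA2 it binds collagen, with ITGA3 laminin and with ITGA5 fibronectin. ITGAV pairs with ITGB1, ITGB3, ITGB5, ITGB6 or ITGB8 and binds the RGD motif of vitronectin, fibronectin and related proteins, and its pairs with ITGB6 and ITGB8 also bind the latency peptide of TGF-β and release the active cytokine. ITGB6 is an epithelial subunit known to be low in resting epithelium and to rise in wound repair and in carcinoma.

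MCF10.AT1 is represented by A01, A02 and A03, and MCF10.AT1-R by B02, B03 and B04. A03, which was left out of the comparison as in the study, stood apart from the other arrays. The mean log2 value of its hybridization controls was 5.99, against 10.35 on A01 and 10.80 on A02. On B02, B03 and B04 the same mean was 10.90, 11.33 and 10.83, so the line means without A03 differed by 0.44 in favour of MCF10.AT1-R. The 95th percentile of the negative control probe sets, taken as the limit of detection, was 3.14 on A01, 3.03 on A02, 3.15 on A03, 2.88 on B02, 2.96 on B03 and 2.95 on B04. On A03 the integrin values ran from 0.64 for ITGA2 to 4.41 for ITGA3, and ITGA3 was the only one of the 9 above the limit of that array. The array names of the lines begin with different letters, and anything that letter stands for cannot be told apart from the line.

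The labelled cell type was checked against its markers. All 8 markers of basal and luminal breast epithelium (EPCAM, CDH1, KRT5, KRT14, KRT17, TP63, KRT8 and KRT18) were above the negative controls on all 5 arrays. PTPRC and CD53 of leukocytes, LUM and PDGFRB of fibroblasts and TEK and KDR of endothelium were above them on 0 of 5 arrays. Other members of these lists were above them on all 5: CD3E and CD68 of leukocytes, COL1A1, COL1A2 and COL3A1 of fibroblasts and PECAM1 and VWF of endothelium, with DCN of fibroblasts on 4. The epithelial markers themselves differed between the lines. All 8 lay higher on every MCF10.AT1-R array, and 6 passed FDR 5%. Of all probe sets tested, 26.7% had no overlap between the lines in either direction, and 0.758% were called as higher in MCF10.AT1-R. KRT17, a basal keratin, led the 6. It was 6.56 on both A01 and A02 and 10.61, 10.57 and 10.73 on B02, B03 and B04. With the filter on low values alone 5 of these 6 were called, and the adjusted p of KRT8 was 0.0898. The sum of the 8 log2 values was 58.0 and 57.4 on A01 and A02, 32.1 on A03, and 71.4, 71.2 and 72.3 on B02, B03 and B04, and the probe set with the highest mean over the 5 arrays was that of KRT18. The part of this shift in the integrin values was not tested, and in RNA of whole cultures fewer cells of a type and less RNA per cell cannot be told apart.

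Of the 9 integrin genes found, 8 were above the negative controls on all 5 arrays, and 6 passed the filter on low and invariant probe sets. ITGB6 rose and ITGA5 fell in MCF10.AT1-R. With limma across all probe sets tested at FDR 5%, 1.2% of 51457 were called in either direction, 0.758% as higher and 0.447% as lower in MCF10.AT1-R, beside 2 of the 6 integrin genes tested. For 5 of these 6 genes every array of 1 line lay above every array of the other, as it did for 26.7% of all probe sets tested. ITGB3, which lay within the negative controls on all 5 arrays, was among the 5. The mean limit of that filter (1.88) lay under the detection limit of every array, so the probe sets tested include undetected ones. The median log2 change was 0.11 over the 6 genes tested, 0.15 over the 9 found and -0.01 over all probe sets tested, whose quartiles were -0.26 and 0.24. The other 3 genes, ITGA2, ITGA3 and ITGB1, were above the detection limit but were removed as invariant, and their values come from the same model without a filter.

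**Figure D1:**
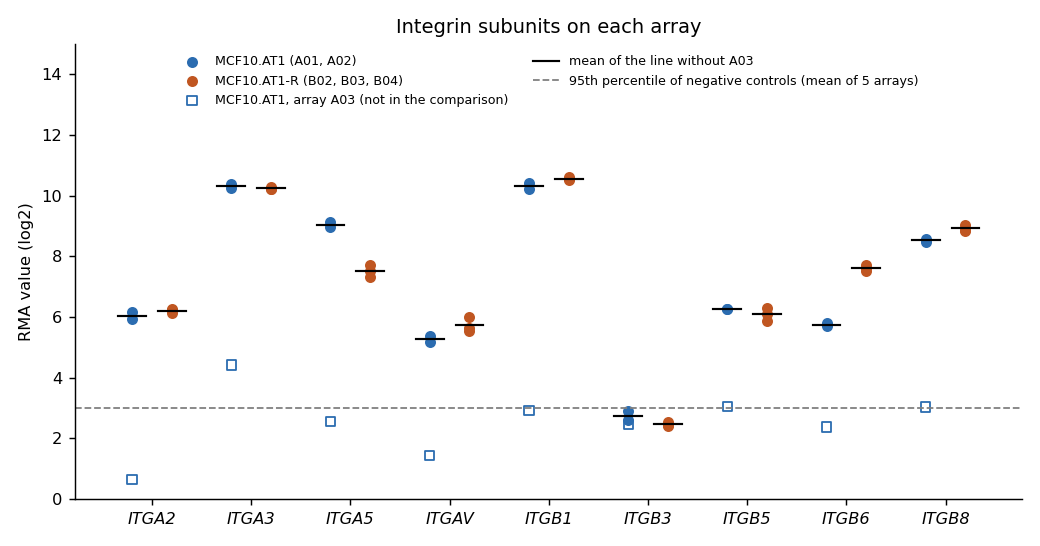
RMA values (log2) of the 9 integrin genes on each array. Filled circles are the arrays compared, 2 for MCF10.AT1 and 3 for MCF10.AT1-R, open squares are A03, horizontal bars are line means without A03, and the dashed line at 2.99 is the mean over the 5 arrays of the negative controls' 95th percentile. ITGB6 is higher and ITGA5 lower on all 3 MCF10.AT1-R arrays, and ITGB3 lies under the dashed line in both lines.

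The genes that were called have unlike upstream sequences. The 250 bases before the RefSeq start (GRCh38.p14; the build behind the array annotation is not given in the sources used here) are shown for these 2 genes, 5′ to 3′ on the strand of the gene, to set the rising gene beside the falling one. The ITGB6 window is chr2:160200273-160200522 on the minus strand and the ITGA5 window is chr12:54419267-54419516 on the minus strand. Capitals mark matches to any of 4 motifs searched on both strands, AP-1 (TGANTCA), the GC box (GGGCGG), the TATA box (TATAAA) and an E-box (CACCTG).
ITGB6: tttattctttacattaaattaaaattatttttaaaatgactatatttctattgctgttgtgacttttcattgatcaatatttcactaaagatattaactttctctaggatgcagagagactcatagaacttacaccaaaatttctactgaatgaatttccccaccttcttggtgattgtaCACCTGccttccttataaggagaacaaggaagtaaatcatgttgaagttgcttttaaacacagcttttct
ITGA5: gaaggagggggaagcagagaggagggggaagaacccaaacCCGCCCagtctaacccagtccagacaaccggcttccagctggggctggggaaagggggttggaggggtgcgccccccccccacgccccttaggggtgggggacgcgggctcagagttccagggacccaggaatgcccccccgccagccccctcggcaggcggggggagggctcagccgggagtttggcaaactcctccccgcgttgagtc
The GC content was 30.0% in the ITGB6 window and 70.0% in the ITGA5 window, where the median of 35116 RefSeq windows of this length was 58.0%. Of all windows, 1.75% were as poor in GC as that of ITGB6 or poorer. The ITGB6 window held 1 E-box, 70 to 65 bases before the start, which 17.5% of all windows also hold. The ITGA5 window held 1 GC box on the opposite strand, 210 to 205 bases before the start, a motif found in 42.6% of windows. Neither held AP-1 (6.57% of windows) or the TATA box (10.7%) in these letters. Factor binding was not measured on these arrays.

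ITGB6, the β subunit that with ITGAV binds and activates latent TGF-β, had log2 values of 5.80 and 5.69 on A01 and A02 and of 7.61, 7.50 and 7.72 on B02, B03 and B04. The lowest MCF10.AT1-R array lay well above the highest MCF10.AT1 array. The means were 5.74 ± 0.08 (SD, n = 2) and 7.61 ± 0.11 (SD, n = 3), a log2 change of 1.86 (SE 0.31, 95% interval 1.25 to 2.47) or 3.64-fold, with a limma adjusted p of 1.03e-06. With the filter on low values alone the limma adjusted p was 0.0118, and without a filter it was 0.0107. Of all probe sets tested, 0.22% changed by at least this size. The value comes from probe set TC0200016743.hg.1. The 2 other probe sets with this symbol were above the negative controls on 0 of 5 arrays. For the mean of the 3 the log2 change was 0.59 with an adjusted p of 0.647, so the call rests on the probe set that was detected.

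ITGA5, the α subunit of the fibronectin receptor, went the other way. Its log2 values were 8.97 and 9.12 on A01 and A02 and 7.51, 7.31 and 7.72 on B02, B03 and B04. Every MCF10.AT1-R array lay below both MCF10.AT1 arrays. The means of 9.04 ± 0.11 (SD, n = 2) and 7.52 ± 0.20 (SD, n = 3) differed by -1.53 (SE 0.31, 95% interval -2.14 to -0.92), 2.89-fold lower in MCF10.AT1-R, with a limma adjusted p of 0.000222. With the filter on low values alone the limma adjusted p was 0.0389, and without a filter it was 0.0408, close to the threshold. This size was reached by 0.416% of all probe sets tested. Without A02 the change was -1.45 and the call was lost. That fit has a single MCF10.AT1 array, so its spread comes from MCF10.AT1-R alone. A single probe set carried the symbol.

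ITGAV, the shared α subunit of the RGD-binding and TGF-β-activating pairs, had log2 values of 5.37 and 5.16 on A01 and A02 and of 6.01, 5.55 and 5.65 on B02, B03 and B04. The lines did not overlap, but the log2 change of 0.47 (95% interval -0.14 to 1.08) missed the threshold, with an adjusted p of 0.766. ITGB8, the other TGF-β-activating partner, had values of 8.58 and 8.47 against 8.88, 8.84 and 9.04. These did not overlap either, and the change of 0.39 (-0.22 to 1.01) had an adjusted p of 0.814. The arrays of each line were close together, and in the fit that lets the variance follow the level (limma-trend) its adjusted p was 0.0214, past the threshold, and 0.0525 where that fit had the filter on low values alone.

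ITGB5, a vitronectin-binding partner of ITGAV, gave 6.28 and 6.27 on A01 and A02 and 5.87, 6.31 and 6.09 on B02, B03 and B04. The lines overlapped, and the log2 change was -0.18 (95% interval -0.79 to 0.43; adjusted p = 0.890). ITGB3, the β subunit of the vitronectin receptor best known from platelets, osteoclasts and endothelium, gave 2.90 and 2.60 against 2.43, 2.53 and 2.42. All of these values lay within the negative controls of their own arrays, so neither line had a level of ITGB3 to compare.

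ITGB1 had log2 values of 10.21 and 10.42 on A01 and A02 and of 10.54, 10.51 and 10.62 on B02, B03 and B04. The lines did not overlap, the log2 change was 0.24 (95% interval -0.19 to 0.66), and the adjusted p without a filter was 0.864. The pseudogene ITGB1P1 may share its probes. ITGA2, the collagen receptor subunit, gave 6.15 and 5.94 against 6.22, 6.12 and 6.26, which overlapped, with a change of 0.15 (-0.27 to 0.58; adjusted p = 0.916). ITGA3, the laminin receptor subunit, gave 10.26 and 10.39 against 10.23, 10.29 and 10.23, which also overlapped, with a change of -0.08 (-0.49 to 0.34; adjusted p = 0.963). None of these 3 intervals reached the change of ITGB6 or of ITGA5.

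**Figure D2:**
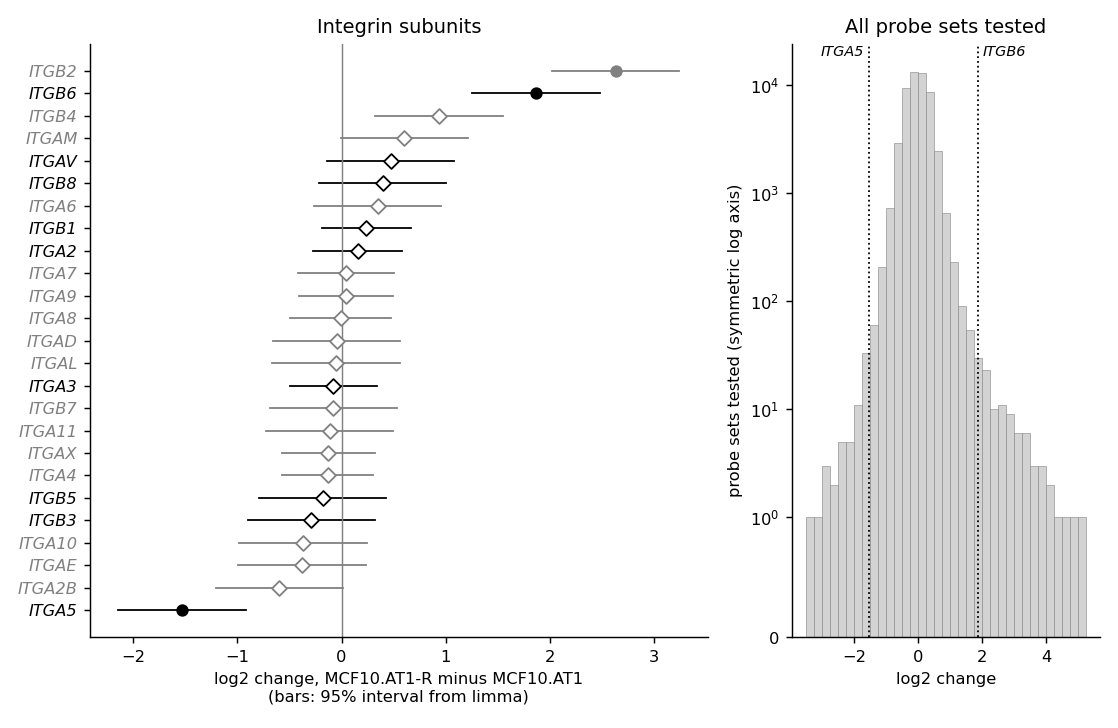
Left, log2 change (MCF10.AT1-R minus MCF10.AT1) of 25 integrin subunits with 95% intervals from limma, the 9 described here in black and 16 others in grey, filled circles where FDR 5% was passed; probe sets removed by the filter take their values from the fit without it. Right, the number of probe sets tested at each log2 change, on a symmetric log axis, with ITGA5 at -1.53 and ITGB6 at 1.86 as dotted lines.

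Since an integrin needs both subunits, the difference between the log2 values of 2 subunits known to pair was taken on each array and compared between the lines, for 8 pairs. ITGB6 minus ITGAV was 0.43 and 0.53 on A01 and A02 and 1.59, 1.95 and 2.06 on B02, B03 and B04, a shift of 1.39. With the mean of the 3 ITGB6 probe sets, of which 2 were not detected, the shift was 0.12. ITGA5 minus ITGB1 was -1.25 and -1.30 against -3.03, -3.20 and -2.89, a shift of -1.77. On every MCF10.AT1-R array the first difference was larger and the second smaller than on both MCF10.AT1 arrays. Smaller shifts without overlap were found for ITGB5 minus ITGAV (-0.65) and ITGA3 minus ITGB1 (-0.32). ITGB1 minus ITGAV (-0.23), ITGB8 minus ITGAV (-0.08) and ITGA2 minus ITGB1 (-0.08) overlapped. ITGB3 minus ITGAV gave no readable shift, since ITGB3 was within the negative controls on all 5 arrays. The exact permutation test over arrays, two-sided, cannot go below p = 0.1 with 2 arrays against 3. It gave 0.1 for ITGB6 minus ITGAV and for ITGA5 and ITGA3 minus ITGB1, and 0.2 after Benjamini-Hochberg adjustment over the 8. For ITGB5 minus ITGAV the same test gave 0.2, and 0.32 after adjustment. No pair passed, and pairs that share ITGAV or ITGB1 are not independent. These differences are of mRNA signal and are not amounts of assembled receptor.

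**Figure D3:**
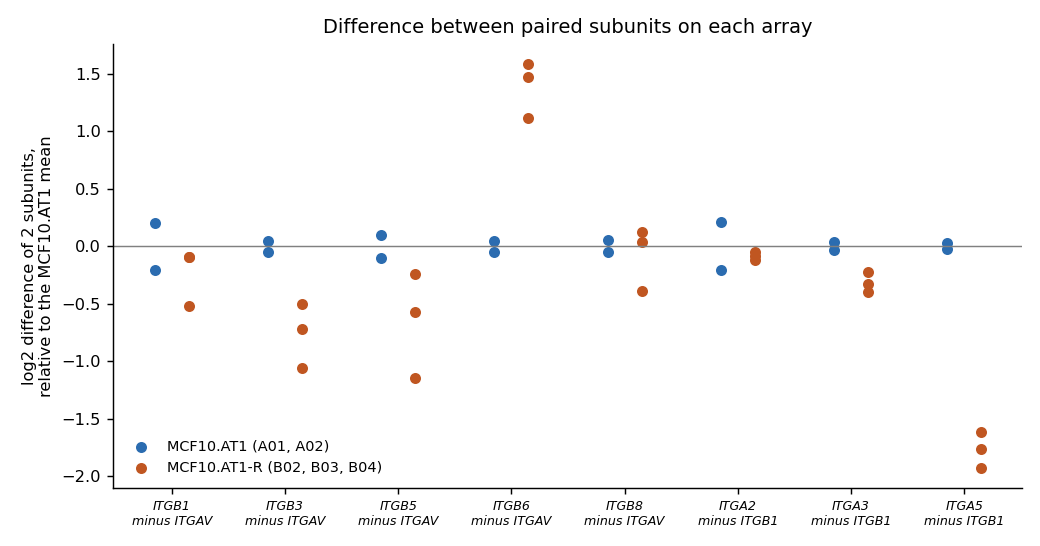
Log2 difference between 2 subunits that pair, on each of the 5 arrays, with the MCF10.AT1 mean of each pair set to 0. ITGB3 was within the negative controls on all 5 arrays, so its pair is not read. ITGB6 minus ITGAV is higher and ITGA5 minus ITGB1 lower on all 3 MCF10.AT1-R arrays (shifts of 1.39 and -1.77).

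Of the 16 other integrin subunits, 9 were above the negative controls on all 5 arrays, and 1 of the 11 tested was called. ITGB2, the β subunit of leukocyte integrins, rose: its log2 values were 3.92 and 3.65 on A01 and A02, 3.58 on A03, and 6.46, 6.11 and 6.67 on B02, B03 and B04. The change was 2.63 (adjusted p = 4.04e-14), 6.18-fold. Of the 2 probe sets with this symbol the one with the higher mean was read, and ITGB2 was also called with the mean of the 2. Of its α partners, ITGAL was above the negative controls on 3 of 5 arrays, so the size of its change was not read. ITGAM was above them on 1, which leaves no change to read. ITGAX had a log2 change of -0.12, and none of the 3 was called. PTPRC and CD53 were above the negative controls on 0 of 5 arrays, and of the 5 leukocyte markers none was called, with sums of log2 values of 12.9 and 14.5 on A01 and A02, 13.0 on A03, and 13.5, 14.3 and 14.4 on B02, B03 and B04 and the highest mean over the 5 arrays for CD68. ITGB4, the hemidesmosome subunit that binds laminin with ITGA6, was 7.27 and 7.26 against 8.13, 8.31 and 8.14, a change of 0.93 with an adjusted p of 0.14, and it was called with limma-trend (adjusted p = 2.08e-08) and with the floor at the negative controls. ITGA6 had a log2 change of 0.35 with an adjusted p of 0.834.

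Among 22 matrix ligands of these integrins, 15 were tested, 3 rose and 3 fell. For this list and those below, the shares called among all probe sets tested were 0.758% as higher and 0.447% as lower. LAMA3, an α chain of basement membrane laminin, a ligand of the ITGA3 and ITGA6 integrins, rose: it was 8.99 and 8.83 on A01 and A02 and 11.01, 10.89 and 11.02 on B02, B03 and B04, a log2 change of 2.06 (adjusted p = 2.1e-08). LAMB3, a laminin β chain, was 6.76 and 6.80 against 8.30, 8.27 and 8.54, a change of 1.59 (adjusted p = 8.9e-05). Neither gene overlapped between the lines, whereas the laminin receptor subunit ITGA3 had a log2 change of -0.08.

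LTBP1, which anchors latent TGF-β in the matrix, fell: it was 8.10 and 8.26 on A01 and A02 and 6.30, 6.21 and 6.51 on B02, B03 and B04, a log2 change of -1.84 (adjusted p = 1.42e-06). FBN1, the microfibril protein fibrillin with an RGD motif, was 5.29 and 5.25 against 4.21, 3.88 and 4.39 and fell by 1.11 on the log2 scale (adjusted p = 0.0335). POSTN, periostin, a ligand of ITGAV integrins, was 3.41 and 3.46 against 2.46, 1.49 and 2.27 (adjusted p = 0.00231). All 3 MCF10.AT1-R values lay within the negative controls, so the log2 change has only a bound, -0.44 with MCF10.AT1-R set at the floor of 2.99, and with that floor on all values neither POSTN nor FBN1 was called. With the filter on low values alone the adjusted p was 0.148 for FBN1 and 0.23 for POSTN. DCN of the fibroblast markers fell too, from 5.31 and 5.32 to 3.49, 2.76 and 3.25; of the 7 fibroblast markers it was the 1 called, and their log2 values summed to 30.2 and 30.7 on A01 and A02, 28.4 on A03, and 28.7, 27.6 and 28.7 on B02, B03 and B04, with the highest mean over the 5 arrays for COL1A1. Its part in the lower ligands was not tested. FN1, fibronectin, the ligand of the ITGA5 receptor, was 7.41 and 7.17 against 7.64, 7.62 and 7.87, a change of 0.43 (adjusted p = 0.795), and TGFB1 had a change of -0.28 (adjusted p = 0.84).

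Of 28 genes for talin, kindlin and other focal adhesion adaptors, 16 were tested, and TNS4 was the 1 called. TNS4, a short tensin of epithelial cells that binds the ITGB1 tail, rose from 8.22 and 8.29 to 9.34, 9.40 and 9.54 (change 1.17, adjusted p = 0.0193), and with the filter on low values alone its adjusted p was 0.0683. FERMT2, kindlin-2, had a log2 change of -0.72 (adjusted p = 0.427). TNS2, another tensin, was above the negative controls on 3 of 5 arrays, B03 among them, so the size of its fall was not read (adjusted p = 0.352). Neither overlapped between the lines. Of 18 focal adhesion kinases and scaffolds, 10 were tested and 1 fell, DOCK1, an activator of Rac: it was 4.77 and 4.98 on A01 and A02 and 4.26, 3.33 and 2.83 on B02, B03 and B04, a change of -1.40 (adjusted p = 0.00132). Its 3 MCF10.AT1-R arrays were far apart, with the filter on low values alone the adjusted p was 0.37, and it was not called with the floor at the negative controls. The log2 change was 0.81 for SRC (adjusted p = 0.288, called with limma-trend) and 0.50 for RAPGEF1, an activator of Rap (adjusted p = 0.743). The brightest of the 4 probe sets of PTK2, the focal adhesion kinase, was within the negative controls on all 5 arrays.

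Of 16 genes for integrin inhibitors and traffic, 8 were tested and 1 was called. RAB25, an epithelial recycling GTPase known to carry ITGB1 integrins, rose from 6.64 and 6.50 to 8.29, 8.25 and 8.39 (change 1.74, adjusted p = 9.35e-06). The log2 change was 0.64 for RAB11A, the related recycling GTPase (adjusted p = 0.566, called with limma-trend), and -0.45 for KANK2, which binds talin (adjusted p = 0.782). Of 16 lateral partners, all were above the negative controls on all 5 arrays, 8 were tested and 1 was called. CD82, a tetraspanin that associates with integrins in the membrane, rose from 5.41 and 5.31 to 7.10, 6.66 and 6.94 (change 1.54, adjusted p = 0.0002). The log2 change was 0.94 for the tetraspanin CD9 (adjusted p = 0.133, 0.000332 with limma-trend, and called with the floor at the negative controls) and -0.28 for CD47 (adjusted p = 0.841), neither with overlap between the lines.

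Over these 6 lists together, 68 of 116 genes were tested, 7 rose and 4 fell, beside the 0.758% and 0.447% of all probe sets given above. The median log2 change was 0.31 over the 68 tested and 0.11 over all 116, and 47 of the 68 had no overlap between lines, beside 26.7% of all probe sets tested. Most genes of each list were above the negative controls on all 5 arrays, whereas all probe sets tested include undetected ones. The counts of the lists and the shares over all probe sets are therefore not matched for detection. Of the 11 genes called, 7 were also called with the filter on low values alone (among them ITGB2, LAMA3, LAMB3, LTBP1, RAB25 and CD82), as were ITGB6 and ITGA5. Of 6 markers of cornifying keratinocytes found, 3 rose (IVL, CDSN and KRT1), KRT10 had a change of 0.58 and was not called, FLG was above the negative controls on 0 of 5 arrays and LOR on 1. IVL, involucrin, went from 3.58 and 3.44 to 6.83, 6.27 and 7.13 and had the highest mean of them over the 5 arrays. With the filter on low values alone IVL was called, and the adjusted p was 0.199 for CDSN and 0.0966 for KRT1. Their log2 values summed to 19.3 and 19.0 on A01 and A02, 16.3 on A03, and 24.4, 24.0 and 26.1 on B02, B03 and B04. Of 5 endothelial markers, PECAM1 fell by 1.12 on the log2 scale (adjusted p = 0.0307, and 0.123 with the filter on low values alone), and the sum was 16.0 and 15.8 on A01 and A02, 13.2 on A03, and 14.8, 14.1 and 14.1 on B02, B03 and B04, with the highest mean over the 5 arrays for VWF. The part of these markers in the changes of ITGB6, ITGA5, LAMA3 and LAMB3 was not tested.

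**Figure D4:**
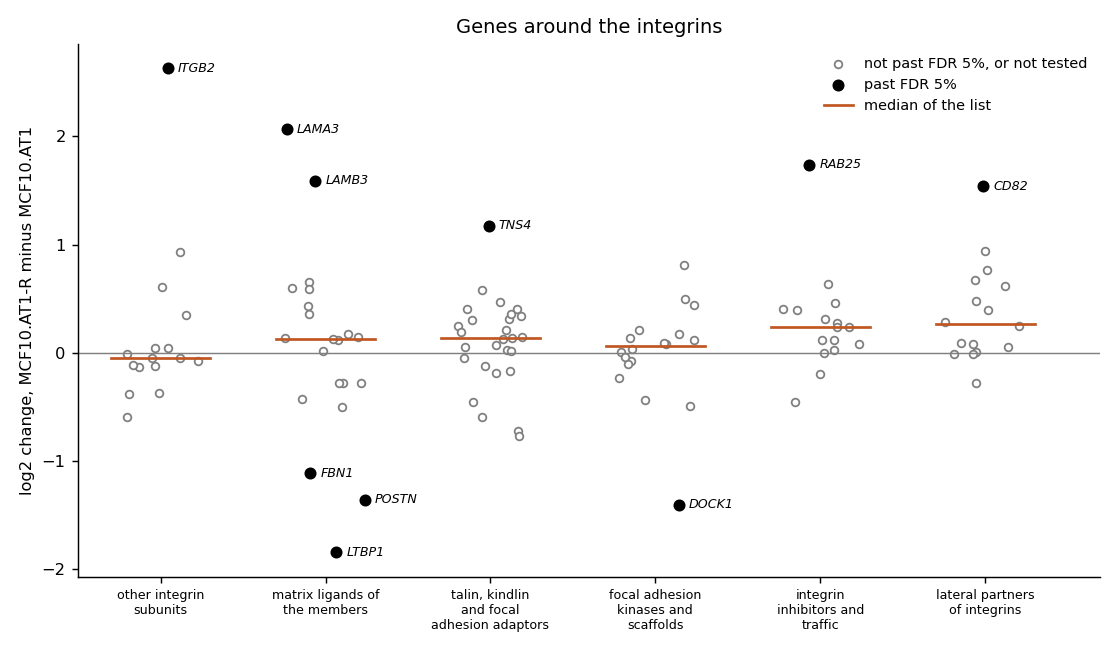
Log2 change (MCF10.AT1-R minus MCF10.AT1) of genes in 6 lists around the integrins, 1 circle per gene reported here, filled and named where FDR 5% was passed, with the median of each whole list as a bar. LAMA3 and LAMB3 rise with ITGB2, TNS4, RAB25 and CD82, and LTBP1, POSTN, FBN1 and DOCK1 fall.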

How the data were processed

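Total RNA of MCF10.AT1 and MCF10.AT1-R was hybridised to Clariom D arrays, 3 per line. The authors made and deposited log2 values by RMA with the affy and oligo packages over all 6 arrays, with quantile normalization across them, so that levels are relative. The table held 138745 rows, of which 2995 control probe sets were left out of tests. The line of each array was taken from the study's principal component plot. Array names carry no replicate number.

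Of 135750 transcript probe sets, 51457 were tested, with a mean over 5 arrays above the median of all (1.88) and an SD above the lowest 25% (0.18). limma 3.58.1 (lmFit, eBayes) in R 4.3.3 was used with Benjamini-Hochberg adjustment at FDR 5%, without A03. It estimated 1 common SD of 0.34 for all. No check of the fit on simulated data is reported here, and no result rests on one. Precision is limited by having 2 arrays in 1 line and 3 in the other. ITGA2, ITGA3 and ITGB1 came from the fit without a filter, as did listed genes that the filter removed. Subunit differences were compared by an exact permutation test. Genes named were the 10 integrins, other subunits past FDR 5% and, from the other lists, genes past FDR 5% and the 2 largest rises and 2 largest falls among tested genes without overlap. Genes named outside that rule (ITGAL, ITGAM, ITGAX, ITGB4, ITGA6, FN1, TGFB1 and the markers) were picked with their values known. The integrins and lists were chosen with earlier results of these data known. Counts cover whole lists, of which some genes are not reported here. CCN1 and CCN2 were matched by the older symbols CYR61 and CTGF. Promoters are from RefSeq (GRCh38.p14), where 8 of the 10 genes have a window. Alternatives changed the filter, variance model, arrays, normalization, floor and handling of several probe sets.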

Additional observations from a re-analysis of the deposited data

How the results depend on the processing

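Against 620 probe sets called, 390 of them for a rise, the low-expression filter alone gave 182 (147 rises), no filter 177, limma-trend 1377, A03 added 44, a floor at the negative controls 272 (218 rises), and the low-expression filter alone with limma-trend, an alternative chosen after seeing the data, 1086. Leaving out 1 array gave 271 (without A02) to 595, with 314 without A01. Of the integrins, 2 were called, against 3 with limma-trend (ITGB8 added), 0 with A03 added, 1 with the mean of all probe sets, and 1 to 2 without 1 array (1 without A02, where ITGA5 lost its call). For the 11 list genes the counts were 7 with the low-expression filter alone, 7 with no filter, 24 with limma-trend, 1 with A03 added, 19 with that filter and limma-trend, and 6 (without A02) to 10 without 1 array. Pairs without overlap numbered 5, that of the undetected ITGB3 among them, 4 with the mean of all probe sets (ITGB6 minus ITGAV 0.12) and 5 to 7 without 1 array. The change of ITGB6 was 1.81 to 1.92 and that of ITGA5 -1.63 to -1.43 without 1 array. With A01 or A02 left out, a single MCF10.AT1 array remained, and the spread came from MCF10.AT1-R alone. With A03 added, the direction turned for ITGA3 (1.89), ITGA5 (0.64), ITGB5 (0.89), ITGB1 minus ITGAV (0.96) and ITGB8 minus ITGAV (0.48), and ITGB6 was at 2.99 with an adjusted p of 0.771. Without 1 array, ITGA2 minus ITGB1 ran from -0.29 to 0.12 (without A01) and ITGB8 minus ITGAV from -0.18 to 0.081 (without B02), so both turned. The cause was not tested, apart from the signal of A03 given in the report. No paired analysis was possible because the columns carry no replicate numbers. Genes within the negative controls, ITGB3 among them, are limited by signal over background.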
